A study of Mus musculus with 12 samples.

Results

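The genes described here are 35 transcripts of the exocrine pancreas, namely digestive enzymes and other secretory products of acinar cells with the transcription factors that control them. They were measured here in RNA of isolated islets. The list was given by symbol and matched to the symbols of the RPKM table (read counts scaled to transcript length and to the mapped reads of the library); all 35 symbols were found among the 24078 transcripts of the table. All 35 passed the filter on low values (0.1 RPKM on average across samples), so that none was lost to it.

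RNA was sequenced from pancreatic islets of 12 male mice, 4 for each genotype and 1 library for each animal. The groups were wild-type mice (WT), heterozygotes (Wfs1HZ) and homozygotes (Wfs1KO) for the Wfs1tm1Koks allele, in which a LacZ cassette stands in place of most of exon 8 and a truncated fusion of WFS1 with LacZ is still expressed. All groups were F2 hybrids of 129S6/SvEvTac and C57BL/6, 5 to 6 months old. Islets were freed with collagenase for 13 min, picked by hand and kept in culture overnight, and 10 ng of RNA went into each cDNA synthesis.

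Acinar cells make up most of the pancreas and surround the islets. They pack precursors of proteases, lipases, amylase and ribonuclease into zymogen granules and release them toward the gut. Their gene programme is driven by PTF1, a complex of PTF1A with an E-protein and RBPJ or its acinar form RBPJL, together with the nuclear receptor NR5A2. In RNA from a whole preparation, fewer cells of a type and less RNA per cell cannot be told apart.

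Promoters and transcripts of a few members are shown first, since PTF1 is known to bind a pair of short motifs and since the trypsinogens are near copies of each other. The 250 bases before the start of each gene were searched on both strands for CACCTG (an E-box), TTTCCC (the part bound by RBPJ or RBPJL) and CAAGGTCA (NR5A2). RefSeq promoters (GRCm38.p6) were available for 27 of the 35 genes, in 29 windows. CACCTG was found in 16 member windows (55.2%) and in 17.2% of the 32851 windows of all genes. TTTCCC was found in 7 member windows (24.1%) and in 21.9% of all, and CAAGGTCA in 2 (6.9%, Cel and Klk1) and in 1.33% of all. Both CACCTG and TTTCCC were present in 5 member windows (Cel, Cela1, Cela2a, Prss1 and Prss2) and in 3.61% of all windows. A match of letters is a description and not a binding site.

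The windows of 3 enzymes are given 5′ to 3′ along the gene, with these motifs in capitals in either orientation. Cel (bile salt-activated lipase, chr2:28563404-28563653, minus strand) held all 3 motifs and is the member whose level followed Cpa1 most closely below. Cela1 (elastase, chr15:100687921-100688170, minus strand) held CACCTG 109 bases and TTTCCC 99 bases before the start. Ctrb1 (chymotrypsinogen, chr8:111691011-111691260, minus strand), the most abundant member, held only TTTCCC, 195 bases before the start.
Cel: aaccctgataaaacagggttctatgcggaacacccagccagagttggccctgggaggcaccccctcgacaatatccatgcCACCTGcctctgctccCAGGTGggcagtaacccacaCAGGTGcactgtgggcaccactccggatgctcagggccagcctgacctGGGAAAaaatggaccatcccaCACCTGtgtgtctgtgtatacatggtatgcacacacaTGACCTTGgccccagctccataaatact
Cela1: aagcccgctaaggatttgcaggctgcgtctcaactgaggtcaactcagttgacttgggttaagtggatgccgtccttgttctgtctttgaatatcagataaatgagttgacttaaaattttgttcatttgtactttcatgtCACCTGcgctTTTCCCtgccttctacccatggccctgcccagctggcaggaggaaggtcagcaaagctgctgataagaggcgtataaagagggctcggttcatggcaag
Ctrb1: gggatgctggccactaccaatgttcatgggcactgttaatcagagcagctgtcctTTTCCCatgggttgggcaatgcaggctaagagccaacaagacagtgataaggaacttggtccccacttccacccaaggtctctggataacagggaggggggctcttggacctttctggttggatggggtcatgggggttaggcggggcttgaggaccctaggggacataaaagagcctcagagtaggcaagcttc

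The trypsinogen transcripts show how far reads of 75 bases can be divided between members. Over the whole GENCODE M21 transcript, Prss3 was 92.6% identical to the unlisted trypsinogen Gm10334, and 53.9% of its 75-base windows also occur there. Try4 and Try5 were 97.1% identical and Prss1 and Prss3 82.6%. Prss2, by far the most abundant of the listed trypsinogens, shared no 75-base window with Prss1, Prss3, Try4 or Try5. The same 75 bases of exon 2 are shown for 4 of them (GRCm38, chromosome 6, plus strand for Prss2 and minus strand for the others), with bases that differ from Prss3 in capitals. Taken alone, a 75-base read from this stretch cannot be assigned to Prss3 or Gm10334, whereas Try5 differs at 2 bases and Prss2 at 5. Sequencing was paired, with a reverse read of 35 bases that was not considered here.
Prss3, chr6:41376828-41376902: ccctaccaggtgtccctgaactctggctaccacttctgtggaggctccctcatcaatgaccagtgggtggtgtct
Gm10334, chr6:41445290-41445364: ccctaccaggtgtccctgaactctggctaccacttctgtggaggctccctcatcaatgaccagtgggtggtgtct
Try5, chr6:41313369-41313443: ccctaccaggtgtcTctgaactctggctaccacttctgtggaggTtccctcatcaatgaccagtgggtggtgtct
Prss2, chr6:41522882-41522956: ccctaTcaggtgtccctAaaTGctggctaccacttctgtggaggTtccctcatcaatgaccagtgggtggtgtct

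The depth behind the values was estimated from the RPKM steps of short RNA genes and was 2170000 to 9540000 reads per library. The paper states several times more reads per sample than this, and the difference was not examined. All approximate read counts below rest on the estimate and would be higher at a greater depth. At the estimated depth, 3 reads on a transcript of 2 kb equal 0.157 to 0.690 RPKM, counting error only. Wfs1 itself was at 28.6 ± 3.83 RPKM in WT, 11.1 ± 5.59 in Wfs1HZ and 4.40 ± 1.83 in Wfs1KO islets (mean ± SD, n = 4 each). Islet hormones were high in every library, with Ins2 between 6423 and 76687 RPKM and Gcg between 50073 and 217165 RPKM. Wfs1HZ replicate 2 and Wfs1KO replicate 4 stood apart from the other 10 libraries by their low acinar RNA, and relations across samples are therefore given over the other 10.

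Acinar transcripts made up a large and very unequal share of the libraries. The 35 genes took 14.7%, 12.2%, 26.6% and 22% of all RPKM in WT replicates 1 to 4. Their share was 24.1%, 2.5%, 17.5% and 48.4% in Wfs1HZ replicates 1 to 4 and 19.1%, 17.3%, 51.9% and 2.2% in Wfs1KO replicates 1 to 4. The lowest and the highest libraries were therefore Wfs1HZ and Wfs1KO libraries, with the 4 WT libraries between them. The mean share was 18.9% ± 6.6 in WT, 23.1% ± 19.1 in Wfs1HZ and 22.6% ± 20.9 in Wfs1KO islets (SD, n = 4 each).

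**Figure D1:**
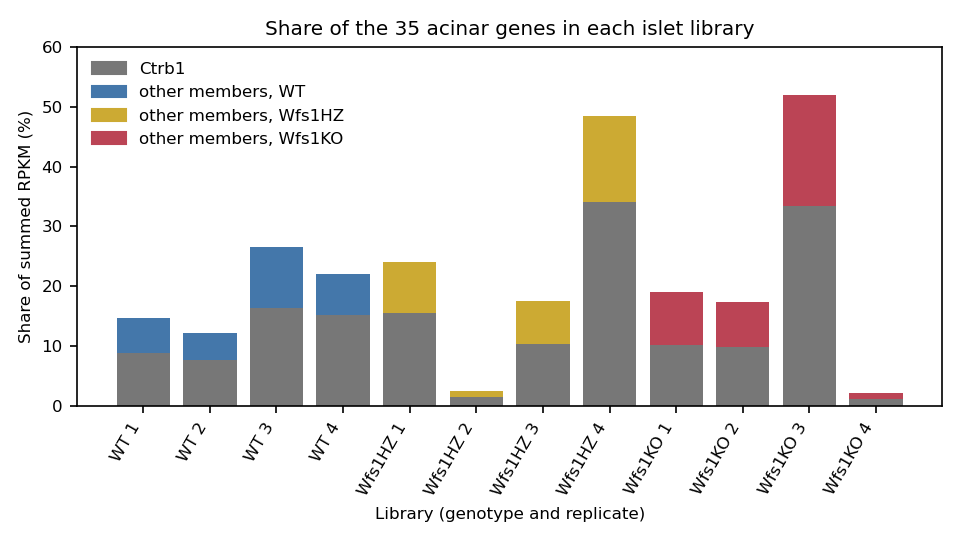
Share of the 35 acinar genes in the summed RPKM of each of the 12 libraries (percent), with Ctrb1 in grey and the other members coloured by genotype. The share ran from 2.2% in Wfs1KO replicate 4 to 51.9% in Wfs1KO replicate 3, and Ctrb1 was the larger part of every bar.

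Among the proteases, Ctrb1 alone accounted for 52.7% to 70.2% of the summed RPKM of the members. It measured 48373, 41103, 88591 and 94362 RPKM in WT replicates 1 to 4, 83766, 6393, 58609 and 258069.7 in Wfs1HZ replicates 1 to 4, and 56357, 49546, 220883 and 6079 in Wfs1KO replicates 1 to 4. The genotypes overlapped, and the highest library was 42.5 times the lowest. Ctrc and Ctrl (further chymotrypsins) and Cela1, Cela2a and Cela3b (elastases) ranged from 34.87 to 6372 RPKM. Annotated exons of Ctrc and Cela2a overlap each other and those of Casp9, and no source states that reads were counted by strand, so these levels are uncertain.

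The carboxypeptidases Cpa1 and Cpb1, which trim amino acids from the ends of digested peptides, were close to each other in every library. Cpa1 (chr6:30639218-30645363) had 2368, 1872, 5286 and 3725 RPKM in WT replicates 1 to 4, 3727, 419.8, 3009 and 8705 in Wfs1HZ replicates 1 to 4, and 3457.5, 3235, 8608 and 390.8 in Wfs1KO replicates 1 to 4. Cpb1 had 2414, 2074, 6806 and 3422 RPKM in WT, 3398, 510.2, 3547 and 9900 in Wfs1HZ, and 3115, 3791, 11381 and 375.5 in Wfs1KO replicates 1 to 4. For both genes the 2 highest libraries were Wfs1HZ replicate 4 and Wfs1KO replicate 3, and the 2 lowest were Wfs1HZ replicate 2 and Wfs1KO replicate 4. Cpb1 was 90.1% to 132.2% of Cpa1, although Cpa1 itself varied 22.3-fold.

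The lipases were likewise lowest in Wfs1HZ replicate 2 and Wfs1KO replicate 4. Clps (colipase, the cofactor of pancreatic lipase) had 4235, 2334, 4611 and 3059 RPKM in WT, 3875.5, 473.2, 4641 and 11467 in Wfs1HZ, and 5644, 3768, 12939.95 and 934.4 in Wfs1KO replicates 1 to 4. Its Wfs1KO and Wfs1HZ values lay on both sides of all WT values. Pnlip (pancreatic lipase), Pnliprp1 and Pnliprp2 (its relatives), Cel and Pla2g1b (phospholipase A2) were between 28.23 RPKM in the lowest and 8256 RPKM in the highest library. Rnase1, a secreted ribonuclease, ran from 116.1 to 2610 RPKM. Amy1, an amylase gene, was low at 1.00 to 15.55 RPKM; its annotated exons overlap those of Rnpc3.

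Products of the zymogen granule were led by Sycn (syncollin, a granule membrane protein). Sycn had 8026, 5509.7, 11012 and 13786 RPKM in WT, 13092, 1133, 11187 and 33623 in Wfs1HZ, and 14713, 9808, 36204 and 1348 in Wfs1KO replicates 1 to 4. The 5 members of highest mean were Ctrb1, Sycn, Clps, Cpb1 and Cpa1. Klk1 (a tissue kallikrein) was among the most variable members, with 598.3, 380.6, 669.1 and 979.5 RPKM in WT, 825.6, 43.51, 528.4 and 2234 in Wfs1HZ, and 603.5, 376.9, 1593 and 61.83 in Wfs1KO replicates 1 to 4. Zg16, Gp2 (the major granule membrane glycoprotein) and Cuzd1 ranged from 4.02 to 1975 RPKM.

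Spink3, the trypsin inhibitor of acinar cells, varied most of all members. It had 178.3, 120.3, 92.67 and 220.0 RPKM in WT, 400.1, 4.32, 86.98 and 371.9 in Wfs1HZ, and 178.9, 36.22, 284.3 and 9.36 in Wfs1KO replicates 1 to 4. Wfs1KO replicate 2 was low for Spink3 although its Cpa1 was 3235 RPKM, close to that of Wfs1KO replicate 1. Spink3 was 1.12% of Cpa1 in Wfs1KO replicate 2 and 5.17% in replicate 1, and 10.7% in Wfs1HZ replicate 1, the highest.

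Trypsinogens, which are cut to trypsin in the gut, spanned a wide range of levels. Prss2 (269.7 to 7957 RPKM) and Try5 (43.64 to 1548 RPKM) were the highest of the 6, followed by Try4 (11.36 to 294.4 RPKM), Try10 (2.55 to 59.30 RPKM) and Prss1 (0.56 to 7.63 RPKM). Prss3 had 3.5, 1.65, 4.63 and 3.45 RPKM in WT, 5.33, 1.12, 2.17 and 90.70 in Wfs1HZ, and 3.33, 2.20, 11.27 and 1.12 in Wfs1KO replicates 1 to 4. Only Wfs1HZ replicate 4 was far above the others. Gm10334, its near copy, had 93.98 RPKM in that library, and Prss3 was 96.5% of Gm10334 there. In the 9 libraries other than this one and the 2 of lowest acinar RNA, Prss3 was 9.4% to 15.6% of Gm10334. In the 2 of lowest acinar RNA it was 102.8% (Wfs1HZ replicate 2) and 61.5% (Wfs1KO replicate 4), on about 2 and 3 reads of Prss3. About 371 reads lay behind the value of Wfs1HZ replicate 4, and how reads shared by the copies were divided is not given in the sources used here.

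The 3 transcription factors averaged 2.10 to 2.69 RPKM, far below most enzymes and near the trypsinogen Prss1 (2.77 RPKM). Ptf1a (chr2:19445663-19447501) had 1.72, 1.10, 1.81 and 3.6 RPKM in WT, 6.20, 1.5, 2.86 and 4.59 in Wfs1HZ, and 1.85, 0.11, 3.75 and 0.20 in Wfs1KO replicates 1 to 4. Wfs1KO replicates 2 and 4 were lower than every other library. At the estimated depth each of these values stands for about 1 read, below the 0.33 and 0.61 RPKM that 3 reads would give there. By that estimate, Ptf1a was not detectable above that limit in these libraries. Rbpjl, the acinar partner of PTF1A, had 0.88, 1.09, 2.78 and 2.34 RPKM in WT, 0.99, 2.03, 1.21 and 4.36 in Wfs1HZ, and 2.79, 1.65, 4.68 and 0.37 in Wfs1KO replicates 1 to 4. Nr5a2 had 1.35, 1.93, 2.65 and 2.05 RPKM in WT, 5.15, 2.70, 1.65 and 4.77 in Wfs1HZ, and 2.20, 2.47, 4.22 and 1.09 in Wfs1KO replicates 1 to 4. In Wfs1HZ replicate 2, the transcription factors were not low as the enzymes were. There Rbpjl was 0.484% of Cpa1 against 0.0266% to 0.0947% in the other 11 libraries, and Nr5a2 was 0.643% against 0.0490% to 0.279%. Annotated exons of Rbpjl overlap those of Matn4, so the level of Rbpjl is uncertain, and the part of Matn4 in it was not tested. Ptf1a stood on about 5 reads in Wfs1HZ replicate 2. That library had the lowest depth and a median of 4.15 RPKM over all transcripts tested, against 1.20 to 2.49 in the others, and the part of these values in the ratios was not tested.

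The remaining members were mixed. Gatm (glycine amidinotransferase, the first step of creatine synthesis) had the smallest spread, with 22.12, 21.27, 24.75 and 16.02 RPKM in WT, 15.36, 14.80, 11.93 and 18.15 in Wfs1HZ, and 12.27, 11.94, 25.64 and 10.38 in Wfs1KO replicates 1 to 4. Its highest library was 2.5 times its lowest. Serpini2 (a serine protease inhibitor) had 0.64, 0.95, 3.15 and 0.22 RPKM in WT, 0.67, 2.25, 2.11 and 2.25 in Wfs1HZ, and 0.88, 1.84, 2.63 and 1.93 in Wfs1KO replicates 1 to 4. It was not low in the 2 libraries of lowest acinar RNA. Dmbt1, a secreted scavenger receptor protein, ran from 17.63 to 466.3 RPKM with the enzymes, and Erp27, a protein of the endoplasmic reticulum, from 0.95 to 27.41 RPKM.

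**Figure D2:**
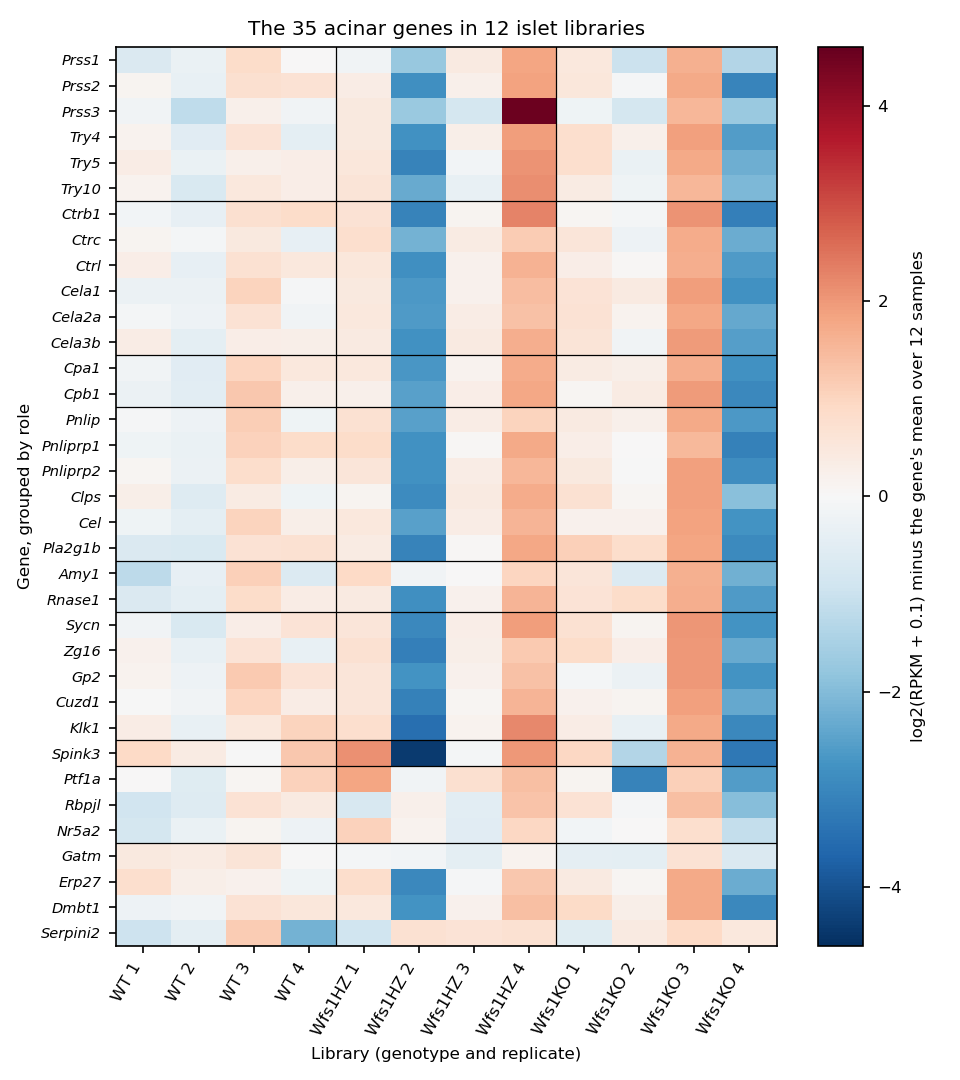
Level of each member in each library as log2(RPKM + 0.1) minus the mean of that gene over the 12 samples (colour scale), with genes in rows grouped by role and libraries in columns by genotype. Nearly all enzymes share the low columns Wfs1HZ 2 and Wfs1KO 4 and the high columns Wfs1HZ 4 and Wfs1KO 3, while Serpini2 is not low in those columns and Gatm varies little.

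With the genotypes pooled, members varied between animals of the same genotype more than most transcripts did. The spread was not equal between genotypes: the SD of the members' share was 6.6% in WT, 19.1% in Wfs1HZ and 20.9% in Wfs1KO libraries. The SD of log2(RPKM + 0.1) with genotype means subtracted had a median of 1.57 over the members and 0.76 over the 21701 transcripts tested. It exceeded the median of all transcripts for 33 members and their 90th percentile (1.52) for 22. Spink3 (2.21), Klk1 (1.83) and Ctrb1 (1.82) had the largest SD, and Gatm (0.40), Nr5a2 (0.65) and Serpini2 (0.99) the smallest.

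The enzymes rose and fell together from library to library. Over all pairs of members (595), the median Pearson r was 0.94 in the 12 samples and 0.82 in the 10 without the libraries of lowest acinar RNA. The first principal component held 88.2% of the members' variance over 12 samples. Of the other 34 members, 26 had an r with Cpa1 of at least 0.8 over the 10 samples, as did 0.34% of the 13357 transcripts that averaged 1 RPKM or more. When Wfs1HZ replicate 4 and Wfs1KO replicate 3 were also left out, 12 members (Cpa1 itself counted) and 0.40% of these transcripts reached 0.8. These coefficients describe genes of the same libraries, which share depth and composition.

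Proportions to Cpa1 differed in how tightly they were held. Cel was 74.0% to 98.2% of Cpa1, with an SD of the log2 ratio of 0.13, the smallest of the members. The SD was 0.20 for Cpb1, Ctrl and Pnliprp2 and 0.22 for Prss2. It was 0.44 for Clps and Try5 and 0.45 for Klk1, and it was 1.07 for Spink3, 1.17 for Nr5a2, 1.27 for Gatm, 1.40 for Ptf1a and 1.77 for Serpini2. Not all enzymes were held tightly: the SD was 0.71 for Prss1, 0.98 for Amy1 and 1.12 for Prss3, against 1.05 for Rbpjl.

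**Figure D3:**
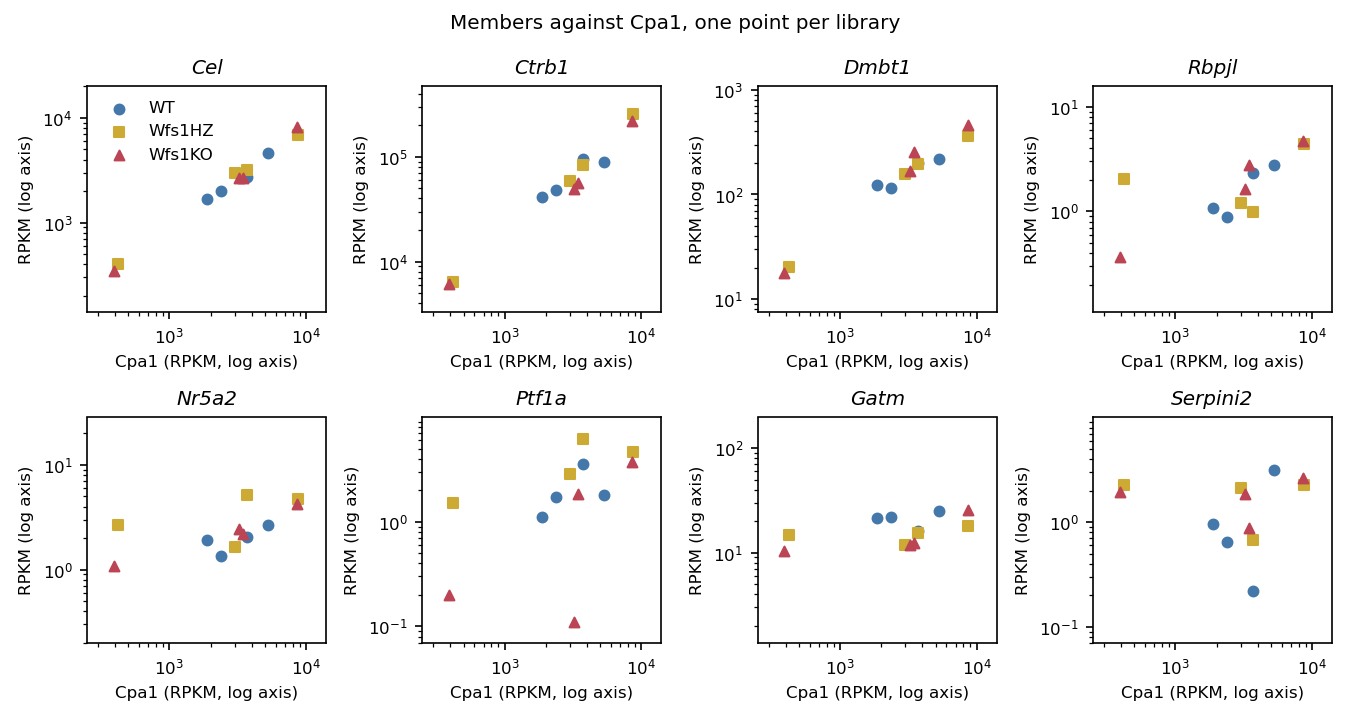
RPKM of 8 members against Cpa1 on log axes that span the same fold in each panel, 1 point per library with colour and shape by genotype. Cel, Ctrb1 and Dmbt1 lie near a straight line over all 12 libraries. Gatm stays between 10.38 and 25.64 RPKM, and Ptf1a falls to 0.11 RPKM in a library with Cpa1 at 3235 RPKM.

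Relations with Cpa1 were tested in a family of 13, over the 10 samples, with two-sided permutation tests on log2(RPKM + 0.1). Dmbt1 had r = 0.94 (p = 0.00021, adjusted 0.0027) and rho = 0.89 (p = 0.0011, adjusted 0.014). Klk1 had r = 0.87 (permutation p = 0.0015, adjusted 0.0067) and rho = 0.87 (p = 0.0022, adjusted 0.014). Among the transcription factors, Rbpjl had r = 0.87 (permutation p = 0.00078, adjusted 0.0051) and rho = 0.73 (p = 0.02, adjusted 0.053). Nr5a2 had r = 0.75 (permutation p = 0.013, adjusted 0.043) and rho = 0.84 (p = 0.0035, adjusted 0.015). Without the 2 samples farthest from the median of Cpa1, Wfs1HZ replicate 4 and Wfs1KO replicate 3, r was 0.82 for Dmbt1, 0.58 for Klk1, 0.68 for Rbpjl and 0.51 for Nr5a2. In those 8 samples the exact permutation p, adjusted, was 0.14, 0.41, 0.26 and 0.5, so that none passed the threshold there. Fewer samples over a narrower range of Cpa1 were left, so how far the relations rest on the 2 samples cannot be told.

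Ptf1a and Gatm did not pass this test. Ptf1a had r = 0.43 (permutation p = 0.22, adjusted 0.33) and rho = 0.71 (p = 0.027, adjusted 0.058), with r = 0.22 in the 8 samples. Gatm had r = 0.30 (permutation p = 0.4, adjusted 0.52) and rho = 0.32 (p = 0.37, adjusted 0.48), with r = -0.07 in the 8 samples. Krt19, a duct keratin, had r = 0.67 (permutation p = 0.037, adjusted 0.095) and rho = 0.79 (p = 0.0089, adjusted 0.029), with r = 0.44 in the 8 samples.

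For Col1a1, Pecam1, Ptprc and Ins2, each the only gene tested for its cell type, no relation passed the threshold over the 10 samples. Beside these values, the median r with Cpa1 over all transcripts averaging 1 RPKM or more was -0.48 in the 10 samples. Among the listed beta cell genes, of which only Ins2 was tested, r ran from -0.75 (Pdx1) to 0.23 (Mafa). For Col1a1 (stroma) r was -0.25 and rho -0.10 (permutation p = 0.49 and 0.78, adjusted 0.58 and 0.78). For Pecam1 (endothelium) r was -0.18 and rho -0.35 (permutation p = 0.61 and 0.33, adjusted 0.66 and 0.48), and for Ptprc (leukocytes) -0.42 and -0.27 (p = 0.23 and 0.45, adjusted 0.33 and 0.53). For Ins2 r was -0.09 and rho -0.19 (permutation p = 0.81 and 0.61, adjusted 0.81 and 0.66). Wfs1 had r = -0.58 and rho = -0.49 (permutation p = 0.083 and 0.15, adjusted 0.18 and 0.25), and r = -0.20 in the 8 samples. With genotype means subtracted its r was -0.85 (permutation p = 0.0025, adjusted 0.0083). For the estimated read depth r was -0.45 and rho -0.62 (permutation p = 0.19 and 0.06, adjusted 0.33 and 0.11). In the 8 samples r was 0.13 for Col1a1, 0.10 for Pecam1, 0.23 for Ptprc, 0.02 for Ins2 and -0.80 for the read depth.

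The summed levels of marker lists of other cell types were compared between the 2 libraries of lowest acinar RNA and the other 10. The stroma, duct and beta cell sums did not overlap between them, and the sums of the other lists did. A sum follows the highest genes of its list, and Spp1 (duct) and Ins1, Ins2 and Iapp (beta cell) were lowest in these 2 libraries. Not every gene of these lists was low there. Sox9 and Cftr (duct) were highest of all in Wfs1HZ replicate 2 (14.16 and 15.02 RPKM), and Pdx1 (beta cell) in Wfs1KO replicate 4 (21.31 RPKM). The 8 stroma genes summed to 135.8 and 364.6 RPKM in these 2 libraries and to 12.8 to 81.5 in the other 10. The 8 genes of other islet cells summed to 171061.8 and 248658.6 RPKM there against 61736.9 to 200843.6. The 10 duct genes summed to 359.2 and 645.7 RPKM against 819.6 to 2089.8, and the 10 beta cell genes to 12565.0 and 22393.7 RPKM against 32086.4 to 179873.6. The 8 endothelial genes (87.3 and 106.0 against 25.4 to 126.6 RPKM) lay within the range of the others. The 7 immune genes measured (of 8 listed) summed to 40.1 and 73.6 against 66.6 to 201.6 RPKM. Of the defining markers, Mafa (beta cell) was listed at 0 in 10 of the 12 samples and Onecut1 (duct) in 2. The part of these cell types in the acinar levels was not tested.

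The 4 unlisted transcripts most like Cpa1 over the 12 samples were 2210010C04Rik (r = 0.991), Pdia2 (0.989), Gm10334 (0.981) and Reg1 (0.979). Over the 10 samples their r was 0.96, 0.95, 0.93 and 0.89. Among them are the trypsinogen Gm10334 and the protein disulfide isomerase Pdia2. Reg1 encodes a secreted protein of the regenerating family.

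The genotypes were compared pair by pair with limma on log2(RPKM + 0.1), adjusted over all 21701 transcripts. These comparisons ask whether loss of Wfs1 goes with a change in acinar RNA of the islet preparation. The 3 comparisons share groups: each genotype enters 2 of them.

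For Wfs1KO against WT islets, none of the 35 members had an adjusted p under 0.05 in limma, nor did any have an unadjusted p under 0.05. Over all transcripts 0.0138% and 5.64% did. No member had samples of the 2 genotypes that did not overlap, against 2.74% of all transcripts. The members' log2 fold change had a median of -0.16, with 12 of 35 higher in Wfs1KO islets, and the median over all transcripts was 0.07. Single values ran from -1.26 (Ptf1a) to 0.93 (Serpini2).

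In the marker lists of other cell types no gene had an adjusted p under 0.05 in limma, while 7 of the 8 stroma genes were higher in Wfs1KO islets (median log2 fold change 1.13), as were 7 of the 8 endothelial genes (median 0.55) and 2 of the 9 beta cell genes tested (median -0.75). Their part in the acinar values was not tested.

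The median of the members turned on single animals. It was -0.79 without Wfs1KO replicate 3 and 0.60 without Wfs1KO replicate 4, with 1 and 32 members higher.

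Cpa1 was at 3923 ± 3421 RPKM in Wfs1KO and 3313 ± 1531 in WT islets (SD, n = 4), and its log2 fold change was -0.30 (SE 0.95, 95% interval -2.44 to 1.83, adjusted p = 0.989 in limma, exact permutation p = 0.83). A change of several fold in either direction is within this interval. Gatm, the member of lowest p, was at 15.1 ± 7.10 RPKM in Wfs1KO and 21 ± 3.66 in WT islets, with a log2 fold change of -0.56 (SE 0.29, 95% interval -1.22 to 0.09, adjusted p = 0.879 in limma, exact permutation p = 0.14). In 3 of 4 Wfs1KO libraries Gatm was below all WT libraries, and Wfs1KO replicate 3 was above them. Ptf1a was at 1.48 ± 1.71 and 2.06 ± 1.08 RPKM, a log2 fold change of -1.26 (SE 0.92, 95% interval -3.34 to 0.83, adjusted p = 0.927 in limma, exact permutation p = 0.4). That value rests on the 2 Wfs1KO libraries with about 1 read: leaving out replicate 2 gave -0.60 and leaving out replicate 4 gave -0.77. Leaving out Wfs1KO replicate 1 gave -1.67 and leaving out Wfs1KO replicate 3 gave -2.0 (limma, unadjusted p = 0.0441, adjusted p = 0.758).

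For Wfs1KO against Wfs1HZ islets, again none of the 35 members had an adjusted p under 0.05 in limma (0% of all transcripts did). No member had an unadjusted p under 0.05, against 2.45% of all transcripts, and no member's samples were separate, against 1.43%. The median log2 fold change was -0.05, with 15 of 35 members higher in Wfs1KO islets and a median of 0.04 over all transcripts. It was -0.84 without Wfs1HZ replicate 2, which left 0 members higher, and 0.82 without Wfs1KO replicate 4, which left 32 higher. Without both of these libraries, a choice made after seeing the data, it was -0.02 with 16 higher.

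Ptf1a had the lowest p of this comparison, with 1.48 ± 1.71 RPKM in Wfs1KO and 3.79 ± 2.05 in Wfs1HZ islets and a log2 fold change of -2.05 (SE 0.94, 95% interval -4.14 to 0.03, adjusted p = 1 in limma, exact permutation p = 0.17). With a sample left out it ran from -2.79 without Wfs1KO replicate 3 (limma, unadjusted p = 0.013, adjusted p = 1) to -1.39 without Wfs1KO replicate 2. With Cpa1 as a covariate, also added after seeing the data, it was -2.03 (limma, unadjusted p = 0.0239, adjusted p = 0.986). Nr5a2 was at 2.50 ± 1.30 and 3.57 ± 1.67 RPKM, a log2 fold change of -0.51 (SE 0.52, 95% interval -1.67 to 0.65, adjusted p = 1 in limma, exact permutation p = 0.4). Cpa1, at 3923 ± 3421 and 3965 ± 3464.5 RPKM, had a log2 fold change of -0.03 (SE 1.21, 95% interval -2.71 to 2.65, adjusted p = 1 in limma, exact permutation p = 0.89).

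For Wfs1HZ against WT islets, the same counts were 0 of 35 members for an adjusted p under 0.05 in limma (0% of all transcripts), and 1 for an unadjusted p under 0.05 (2.35% of all). No member's samples were separate (1.66% of all). The median log2 fold change was -0.23, with 9 of 35 members higher in Wfs1HZ islets and a median of 0.04 over all transcripts. Leaving out Wfs1HZ replicate 4 gave -0.77, and leaving out Wfs1HZ replicate 2 gave 0.68. In the marker lists, 7 of the 8 stroma genes (median 0.79) and 8 of the 8 endothelial genes (median 0.63) were higher in Wfs1HZ islets, none with an adjusted p under 0.05 in limma, and their part in the acinar values was not tested.

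Gatm, the member with the unadjusted p under 0.05, was at 15.1 ± 2.55 RPKM in Wfs1HZ and 21 ± 3.66 in WT islets. Its log2 fold change was -0.48 (SE 0.21, 95% interval -0.95 to -0.00, adjusted p = 1 in limma, exact permutation p = 0.057), and the groups overlapped at Wfs1HZ replicate 4 and WT replicate 4. Nr5a2 was at 3.57 ± 1.67 and 1.99 ± 0.533 RPKM, a log2 fold change of 0.71 (SE 0.45, 95% interval -0.29 to 1.72, adjusted p = 1 in limma, exact permutation p = 0.17). Ptf1a, at 3.79 ± 2.05 and 2.06 ± 1.08 RPKM, had a log2 fold change of 0.80 (SE 0.53, 95% interval -0.39 to 1.98, adjusted p = 1 in limma, exact permutation p = 0.2). Cpa1 had a log2 fold change of -0.27 (SE 1.00, 95% interval -2.50 to 1.96, adjusted p = 1 in limma, exact permutation p = 0.86).

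Other members at the ends of the range had large errors. Spink3 had a log2 fold change of -1.16 (SE 0.95) in Wfs1KO against WT and -0.73 (SE 1.22) in Wfs1HZ against WT islets. Prss3 had -0.91 (SE 1.20) in Wfs1KO against Wfs1HZ and 0.92 (SE 1.13) in Wfs1HZ against WT islets, and its Wfs1HZ mean rests on replicate 4. Serpini2 had 0.93 (SE 0.69) in Wfs1KO and 0.88 (SE 0.76) in Wfs1HZ against WT islets. The SE of Ctrb1, 3.32 to 5.24 on the log2 scale, is set by the variance trend at the top of the expression range; without a trend it was 0.97 to 1.34, and its log2 fold changes were -0.54, -0.28 and -0.26.

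**Figure D4:**
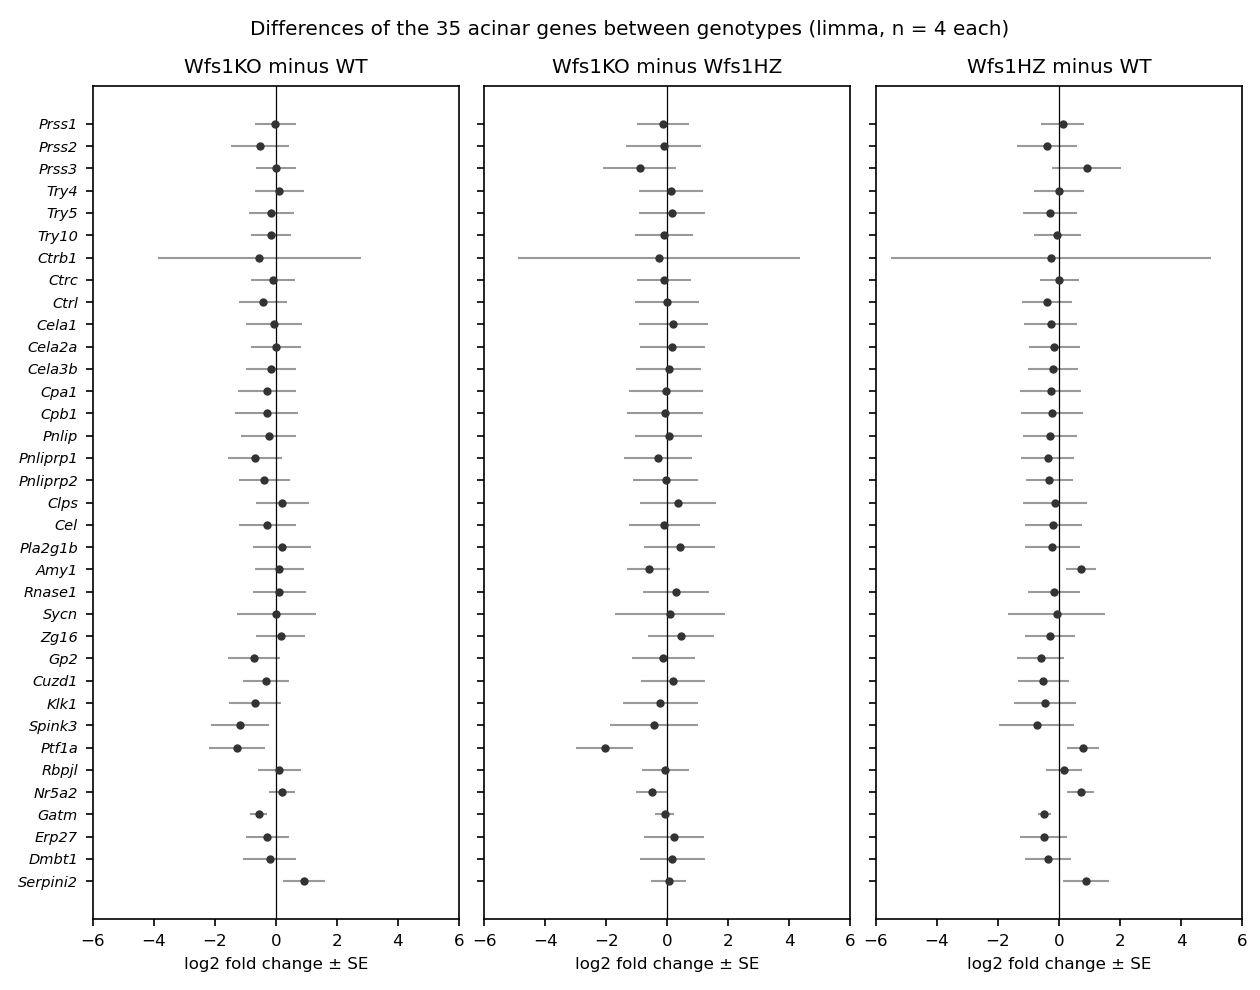
Log2 fold change of each member with its limma standard error (horizontal bars, n = 4 for each genotype) in the 3 comparisons. Most enzymes sit together near the medians of -0.16, -0.05 and -0.23, and Ptf1a has the lowest value in both Wfs1KO panels; no member passed the adjusted threshold.

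Other acinar genes that were not members gave the same picture by adjusted p. Of 23 listed, 16 were found in the table under the same symbol. None had an adjusted p under 0.05 in limma in any comparison, and 1, 2 and 1 had an unadjusted p under 0.05 in Wfs1KO against WT, Wfs1KO against Wfs1HZ and Wfs1HZ against WT, beside 5.64%, 2.45% and 2.35% of all transcripts. Their median log2 fold changes were -0.29, -0.10 and -0.26.

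Bhlha15 (MIST1, which drives the secretory machinery of acinar and other secretory cells) was among these in all 3 comparisons. It had 5.82, 4.15, 6.23 and 7.45 RPKM in WT, 3.96, 1.81, 3.12 and 3.45 in Wfs1HZ, and 13.43, 14.44, 9.54 and 5.26 in Wfs1KO replicates 1 to 4. All Wfs1HZ libraries were below all WT and all Wfs1KO libraries. Its log2 fold change was 1.71 for Wfs1KO against Wfs1HZ (SE 0.40, adjusted p = 1 in limma, exact permutation p = 0.029, the smallest that 4 against 4 samples can give). It was -0.94 for Wfs1HZ against WT (SE 0.34, adjusted p = 1 in limma, exact permutation p = 0.029) and 0.77 for Wfs1KO against WT (SE 0.34, adjusted p = 0.879 in limma, exact permutation p = 0.11). The paper's own test (edgeR) listed Bhlha15 as higher in Wfs1KO than in Wfs1HZ islets at a false discovery rate under 0.05. In limma on RPKM it did not pass that threshold. The r of Bhlha15 with Cpa1 over the 10 samples was 0.06. Rab3d, a GTPase of secretory granules, was the other gene with an unadjusted p under 0.05, with a log2 fold change of 0.84 for Wfs1KO against Wfs1HZ (SE 0.27, adjusted p = 1 in limma).

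**Figure D5:**
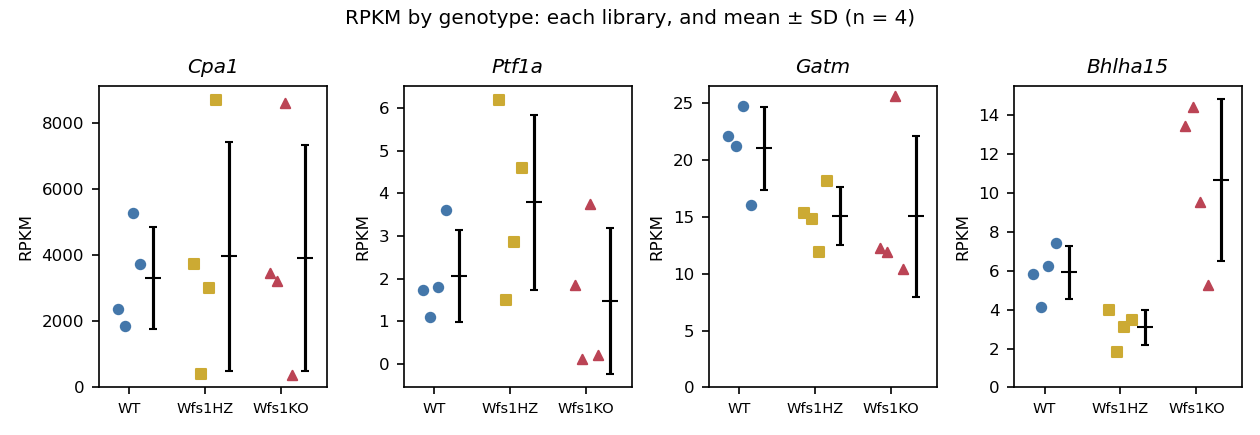
RPKM of Cpa1, Ptf1a, Gatm and Bhlha15 in each library by genotype, with mean and SD (bars, n = 4). Cpa1 spreads from 390.8 to 8705 RPKM with overlapping genotypes, and Bhlha15 is lower in all 4 Wfs1HZ libraries, at 1.81 to 3.96 RPKM, than in any other.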

How the data were processed

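Reads were mapped by the authors to mm10 with LifeScope, and the deposited values are RPKM per transcript, 1 column for each animal; the annotation and the counting tool are not given in the sources used here. RPKM were used as deposited, as log2(RPKM + 0.1). limma 3.58.1 (R 4.3.3), with a variance trend, compared genotypes pair by pair and was tested on simulated data; p-values were adjusted by Benjamini-Hochberg across the 21701 transcripts averaging 0.1 RPKM or more. Exact permutation tests (4 against 4, smallest p 0.029) were added for single genes. Approximate reads are RPKM multiplied by exon length (GENCODE M21, GRCm38) and the estimated depth. That depth was the one at which most values of short RNA genes fell on whole reads. Of 702 such genes, 86 to 161 were used in a library. Among their values of a few reads, 68.8% to 81.2% were whole within 0.05 reads. The depth was fitted to the same values, so this is no separate check. Spink3 was matched to the annotation as Spink1. Relations across samples had been planned over 12 samples and are given over 10, since 2 libraries stood apart. Replicates are separate animals with labels numbered 1 to 4.

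Members and lists were chosen with earlier results of these data known. Values in every sample are given for Cpa1, the transcription factors, the 5 highest members, the 3 of largest and the 3 of smallest spread and those of lowest p; full statistics for Cpa1, Ptf1a and the 2 members of lowest p in each comparison. Of the 5 unlisted transcripts most like Cpa1, 1 is not reported here. Prss3 and Bhlha15 were given per sample after their values were seen. Alternatives were other pseudocounts, filters, scalings, no trend, a fit of all 12 samples, a replicate block and each sample left out. Python 3.11.15, pandas 2.3.3, scipy 1.17.1 and Biopython 1.88 were used.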

Additional observations from a re-analysis of the deposited data

Results flagged for a closer look

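Within a genotype, a sample was marked when the gap to its nearest neighbour was a large part of the range of the 4 samples on the log2 scale (Dixon's test). Among 108 groups (35 members and their summed share, in 3 genotypes) 4 were marked, and chance marks about 1 in 20. Cela2a, an elastase, was high in WT replicate 3 at 2453 RPKM, with the other WT libraries at 1299.64 to 1440.06 RPKM. Pnlip, pancreatic lipase, was high in the same library at 4709 RPKM, with the others at 1856 to 2112 RPKM. Cela3b, another elastase, was low in WT replicate 2 at 475.5 RPKM, with the others at 767.5 to 809.5 RPKM. Serpini2 was low in Wfs1HZ replicate 1 at 0.67 RPKM, with the others at 2.11 to 2.25 RPKM; about 5 reads lay behind the low value.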

How the results depend on the processing

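No member had an adjusted p under 0.05 in any comparison under any alternative tried, and the median log2 fold change of the members moved by less than the SD of 1.65 between samples of a genotype. With each sample left out in turn, that median ran from -0.79 to 0.60 (Wfs1KO against WT), -0.84 to 0.82 (Wfs1KO against Wfs1HZ) and -0.77 to 0.68 (Wfs1HZ against WT), and the number of members whose samples did not overlap from 0 to 1 in the first and the last of these. Cpa1's log2 fold change turned sign with quantile normalization for Wfs1KO against Wfs1HZ (0.08), and with a sample left out it ran from -0.90 to 0.58, -0.89 to 0.86 and -0.87 to 0.59 in these comparisons.

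The 3 transcripts called in Wfs1KO against WT became 0 with pseudocount 1, 1 with all 12 samples in a single fit, 5 with Cpa1 as a covariate (added after seeing the data) and 0 to 1 with a sample left out. In Wfs1HZ against WT, 1 was called without a filter and 2 without a variance trend; the cause was not tested. Deviations of same-numbered animals correlated with r from -0.28 to 0.34, and the labels do not say whether the numbers pair animals. A replicate block left 0 transcripts called in Wfs1KO against WT and changed no call on a member.

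Of 13 relations with Cpa1, 4 passed over 10 samples and 0 over 8. Without the 2 farthest samples r turned sign for Gatm (-0.07), Col1a1 (0.13), Pecam1 (0.10), Ptprc (0.23) and Ins2 (0.02). It did so with scaling to non-acinar transcripts for Pecam1 (0.13) and Ins2 (0.01), and over all 12 samples for Ins2 (0.59), Wfs1 (0.30) and the read depth (0.49). Depth limits Ptf1a, Rbpjl, Prss1, Prss3 and Serpini2, which had few reads in the shallow libraries.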

Other observations

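Amylase transcripts other than Amy1 were below the leading enzymes such as Cpa1. Amy2b ran from 2.14 to 123.9 RPKM, with r = 0.97 with Cpa1 over the 12 samples. The pancreatic amylase genes Amy2a2 to Amy2a5 appear only as 13 copy entries, of which 4 were listed at 0 in every sample. The highest, a copy entry of Amy2a5 (Amy2a5_dup4), ran from 0.77 to 61.72 RPKM. The entries Amy2a2_dup3, Amy2a3_dup3 and Amy2a4_dup3 held identical values in every sample, 0.32 to 26.11 RPKM. How reads of these copies were divided is not given in the sources used here.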
